A study of Mus musculus with 11 samples.

Results

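Reg3a, Reg3b and Reg3g are secreted C-type lectins of the regenerating islet-derived family. They were chosen from an earlier analysis of the same arrays for their difference between the diets and for their shared family, so the diet difference of these genes is given as a description, with no test. The members are the probe sets whose only gene symbol in the platform annotation is one of the 3 names. Each gene had 1 such probe set, and together they are 3 of the 18820 genes with a symbol of their own.

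REG3 lectins are made by intestinal epithelial cells and released towards the lumen, where they bind cell wall components of bacteria. Reg3g is known for killing Gram-positive bacteria and for keeping bacteria away from the mucosal surface, and Reg3b is known for acting on Gram-negative bacteria. Their genes are induced by bacterial signals through MyD88 and by interleukin-22 through STAT3. The family was first described in the pancreas, where acinar cells make REG proteins under stress.

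Mucosa was scraped from the colon of male C57BL/6J mice aged 12 weeks, and total RNA was hybridised to 1 single-colour array per mouse. Every mouse had first been kept for 2 weeks on the control feed, which was low in fat. For the next 10 days, 5 control mice stayed on it and 6 inulin mice ate the same diet with 10% (w/w) of the corn starch replaced by inulin, a fermentable fructan fibre. The labels differ on the last hours: in one account a meal of 1 g of diet 4 h before death followed the overnight fast, and in the other the fast was the last step.

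The labels describe scraped epithelial cells, and 11 of 11 epithelial markers were measured, led by the keratin genes Krt8 and Krt19. Their mean lay between 11.24 and 11.31 in control and between 11.24 and 11.36 in inulin mice on the log2 scale. The arrays had medians between 5.38 and 5.46 and lower quartiles between 3.72 and 3.79. Scrapings also carry other tissue. Pancreatic acinar markers stood apart in inulin mouse 3, with a mean of 9.39 against 5.04 to 7.16 in the other mice. Adipocyte markers were highest in inulin mice 5, 4 and 2 (8.63, 8.17 and 7.63, against 5.83 to 6.55 in the others). Results that rest on inulin mouse 3 are given with and without it.

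The 3 genes lie together on chromosome 6. In the RefSeq annotation of GRCm38.p6 the order of the genes in this cluster is Reg3b, Reg3d, Reg3a, Reg2, Reg1, the pseudogene Gm52853 and Reg3g, so Reg3b and Reg3g sit at its ends. The 250 bases before each start site were taken from RefSeq (GRCm38.p6), because members that share a response can be compared by the sequence in front of them. They are written 5′ to 3′ on the strand of the gene, with motif matches in capitals.
Reg3g (chr6:78468875-78469124, minus strand): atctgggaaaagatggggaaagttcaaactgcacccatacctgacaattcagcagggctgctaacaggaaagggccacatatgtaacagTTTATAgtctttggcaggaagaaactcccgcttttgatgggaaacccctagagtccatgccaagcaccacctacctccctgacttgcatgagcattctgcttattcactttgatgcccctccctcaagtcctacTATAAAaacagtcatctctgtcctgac
Reg3b (chr6:78370635-78370884, plus strand): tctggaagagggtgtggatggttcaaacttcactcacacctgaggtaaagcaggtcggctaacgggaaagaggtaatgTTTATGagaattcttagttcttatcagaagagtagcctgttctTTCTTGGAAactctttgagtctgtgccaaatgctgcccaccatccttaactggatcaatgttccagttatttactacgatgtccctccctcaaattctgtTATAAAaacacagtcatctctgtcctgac
Reg3a (chr6:78380459-78380708, plus strand): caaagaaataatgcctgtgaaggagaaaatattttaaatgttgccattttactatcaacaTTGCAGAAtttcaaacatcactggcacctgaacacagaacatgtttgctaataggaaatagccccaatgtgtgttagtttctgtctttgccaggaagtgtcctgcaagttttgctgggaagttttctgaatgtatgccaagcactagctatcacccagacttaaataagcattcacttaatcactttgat

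Reg3b and Reg3g were identical in 173 of 247 aligned bases (70.0%) of this window. Reg3a matched Reg3g in 143 of 199 aligned bases (71.9%) and Reg3b in 137 of 196 (69.9%), so the share of identical bases was alike in the 3 pairs, while Reg3b and Reg3g aligned over more of the window. Pairs that include the family genes Reg1, Reg2, Reg3d or Reg4 ran from 56.3% (Reg2 with Reg3g) to 69% (Reg2 with Reg1). Reg4, which lies on chromosome 3, had 63.2% with Reg3b and 62.6% with Reg3g. Next to the start site Reg3b and Reg3g shared an unbroken run of 20 bases, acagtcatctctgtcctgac, at positions -20 to -1. The longest run that Reg3a shared was 11 bases with Reg3g and 7 bases with Reg3b. These runs began at -57 in Reg3a against -105 in Reg3g, and at -181 in Reg3a against -229 in Reg3b. The Reg3a window was thus offset from those of Reg3g and Reg3b at these runs. Bases that Reg3g and Reg3b hold next to the start site may lie beyond the annotated start of Reg3a, which was not tested.

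Motifs were searched on both strands, and no matches in these windows overlapped. A match describes the letters only, and a missing match says only that they are not in this window. The TATA box (TATAAA) was found at -27 to -22 in Reg3g and at -29 to -24 in Reg3b, and 12.4% of 32851 mouse promoter windows of the same length hold it. Reg3g held it once more on the other strand, at -161 to -156, and Reg3a held none in its offset window. A STAT site (TTCNNNGAA, in 7.02% of windows) lay at -129 to -121 in Reg3b. Reg3b also held a CDX site (TTTATG, 10.8%), and Reg3a a C/EBP site (TTGCNNAA, 9.56%) at -190 to -183. Such motifs also lay before other family genes. Reg1 and Reg2 each held a TATA box at -30 to -25, and Reg3d a STAT site at -238 to -230. Reg2 held a C/EBP site at -234 to -227, and Reg4 a GATA site at -101 to -96. The GATA site (AGATAA, 9.99%) had no match in the windows of Reg3g, Reg3b and Reg3a. The NF-kB site was searched only in a strict form (in 0.356% of windows), which had no match there either. Looser forms of the NF-kB site were not searched, so these windows may still hold letters like it.

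Reg3g was at 9.07, 8.25, 8.14, 9.48 and 7.86 in control mice 1 to 5, and at 12.01, 11.29, 11.04, 11.32, 11.88 and 10.80 in inulin mice 1 to 6, as log2 array values. Every inulin mouse was above every control mouse, with 1.32 between the lowest inulin and the highest control value. The means were 8.56 ± 0.68 (SD, n = 5) and 11.39 ± 0.47 (SD, n = 6), a difference of 2.83 (SE 0.30) or 7.10-fold. This was the largest positive difference among the 18820 genes.

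Reg3b was at 10.05, 9.20, 9.11, 11.19 and 10.21 in control mice 1 to 5, and at 12.70, 12.07, 12.08, 12.38, 12.58 and 11.71 in inulin mice 1 to 6. The groups did not overlap here either, but control mouse 4, the highest control for both lectins, came within 0.52 of the lowest inulin mouse. The means were 9.95 ± 0.85 (SD, n = 5) and 12.25 ± 0.37 (SD, n = 6), a difference of 2.30 (SE 0.32) or 4.93-fold, the third largest of all genes. In these scrapings a change in RNA per cell and a change in the share of cells that make a lectin cannot be told apart.

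Reg3a was at 3.23, 3.14, 3.01, 3.11 and 3.02 in control mice 1 to 5, and at 3.97, 3.33, 4.69, 3.89, 3.77 and 3.24 in inulin mice 1 to 6. All control mice, and inulin mice 2 and 6, had Reg3a under the lower quartile of array values, where signal and background are poorly separated. Inulin mouse 3, the mouse with pancreatic markers, was the highest. The groups were separated by only 0.01, between inulin mouse 6 and control mouse 1. The means were 3.10 ± 0.09 (SD, n = 5) and 3.81 ± 0.52 (SD, n = 6), a difference of 0.71 (SE 0.20) or 1.64-fold. Without inulin mouse 3 the difference was 0.54, and without inulin mice 3, 4 and 5, which carried pancreatic or fat markers, it was 0.41.

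Groups that did not overlap, with inulin higher, were found for 191 of 18820 genes (1.01%), and 3 of 3 members were among them. The members were chosen by this contrast, so the comparison of these shares carries no weight. For Reg3g and Reg3b the difference moved by at most 0.1 without inulin mouse 3, or without inulin mice 3, 4 and 5. Inulin mouse 2, which also carried fat markers, stayed in both. The difference was 2.90 and 2.33 without inulin mouse 3, and 2.80 and 2.21 without inulin mice 3, 4 and 5.

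**Figure D1:**
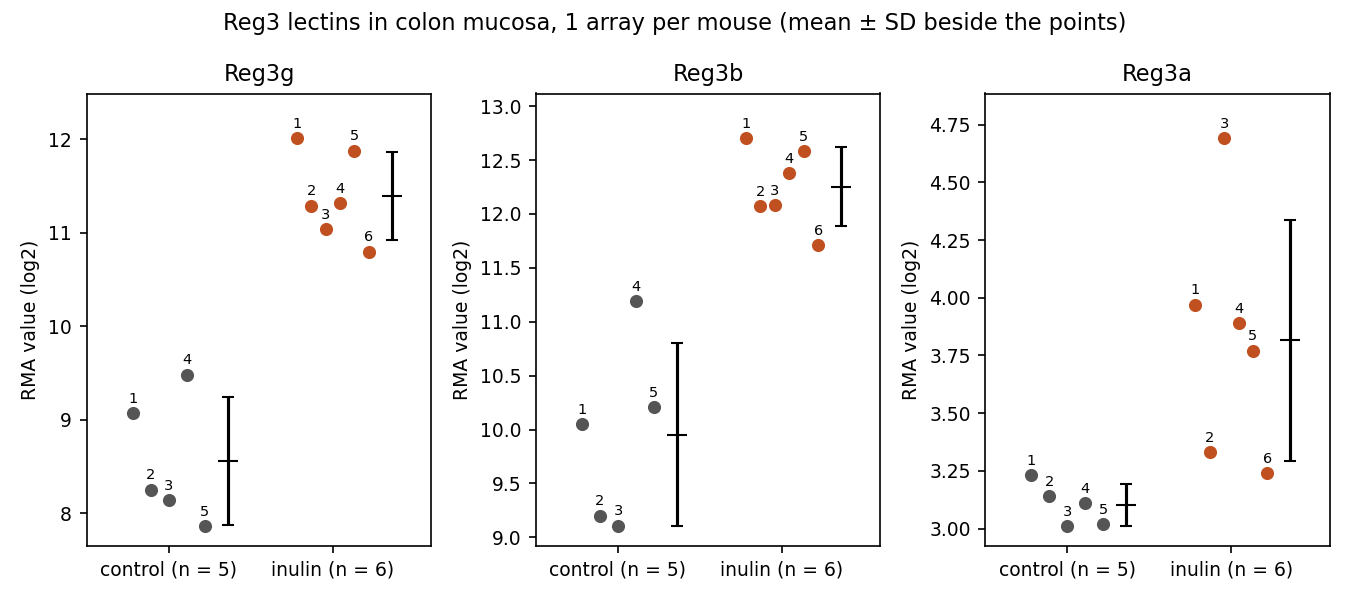
Log2 array values of Reg3g, Reg3b and Reg3a (y axes, a scale of its own for each gene) by diet, with 1 numbered point per mouse and the mean ± SD beside the points. All inulin mice lie above all control mice for each gene, by 1.32 for Reg3g, 0.52 for Reg3b and 0.01 for Reg3a.

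The spread between mice was itself large and took a different form in each diet. Among control mice, Reg3b ran over 2.07 on the log2 scale (4.2-fold) and Reg3g over 1.62 (3.07-fold). Only 5 of 18820 genes had a larger control SD than Reg3b, and the median SD of a gene within control was 0.104. Under inulin the range narrowed to 0.99 for Reg3b and 1.21 for Reg3g, while the median SD of all genes was 0.130. Reg3a ran the other way, with a control range of 0.22 and an inulin range of 1.45. Whether the spread differed between the diets was not tested.

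Within the inulin mice Reg3b and Reg3g moved together. Mouse 1 was highest and mouse 5 next for both genes, and mouse 6 was lowest for both. Over the 6 mice Pearson's r was 0.95 (exact permutation p = 0.0028, two-sided, the smallest that 6 arrays allow, 0.0083 adjusted over the 3 pairs of members). Spearman's rho was 0.94 (exact permutation p = 0.017, 0.050 adjusted). Without inulin mice 1 and 6, the farthest from the Reg3b median, r was 0.87. The probe sets of such related genes may share signal, which was not tested.

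In the 5 control mice, too few for a correlation, the pair was looser. Control mouse 4 was highest for both genes and control mice 2 and 3 were low for both, but control mouse 5 had the second highest Reg3b (10.21) and the lowest Reg3g (7.86). The difference Reg3g minus Reg3b, whose zero has no meaning across probe sets, was -2.36 in control mouse 5 and -1.71 in control mouse 4. It lay between -0.98 and -0.95 in the other control mice and between -1.07 and -0.69 in the inulin mice. Over all 11 mice, with each value taken as its deviation from the diet mean, r was 0.74 (permutation p = 0.026, resampled within diets).

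For Reg3a the relation to the other members rested on single mice. Within the inulin mice its r was 0.12 with Reg3g (exact permutation p = 0.85, 0.85 adjusted) and 0.33 with Reg3b (exact permutation p = 0.54, 0.81 adjusted). Spearman's rho was 0.37 (exact permutation p = 0.50, 0.50 adjusted) and 0.60 (exact permutation p = 0.24, 0.36 adjusted). Inulin mouse 3 had the highest Reg3a and the second lowest Reg3g, and without it r was 0.79 with Reg3g and 0.93 with Reg3b over 5 mice. Without inulin mouse 6 instead, r turned to -0.32 and -0.11. Without inulin mice 3 and 6, the farthest from the Reg3a median, r was 0.58 with Reg3g and 0.88 with Reg3b.

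**Figure D2:**
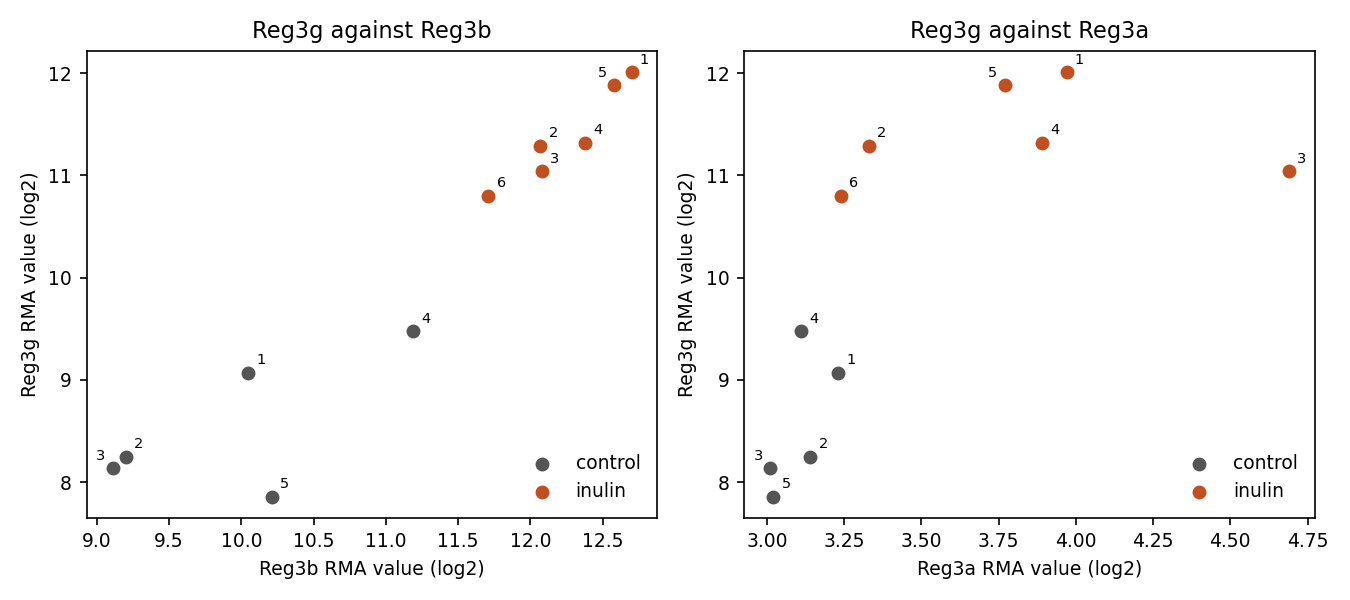
Log2 array values of Reg3g (y axes) against Reg3b (left) and Reg3a (right), 1 numbered point per mouse. The inulin mice line up for Reg3b and Reg3g (r = 0.95, n = 6), control mouse 5 has low Reg3g for its Reg3b, and inulin mouse 3 lies far to the right for Reg3a.

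The other family members put Reg3a in context. Reg1 and Reg2, secreted REG proteins made in quantity by the exocrine pancreas, and Reg3d, their neighbour on chromosome 6, were all highest in inulin mouse 3. Reg1 was at 9.44 there, with a range of 4.46 to 6.40 over the remaining inulin mice and of 3.66 to 4.84 over control mice. Reg2 was at 8.90, against 3.41 to 5.13 and 3.39 to 3.69. Reg3d was at 4.66, against 2.72 to 3.04 and 2.52 to 2.80. The groups overlapped for each gene, and without inulin mouse 3 the mice above every control were 3 of 5 for Reg1, 4 of 5 for Reg2 and 4 of 5 for Reg3d.

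Reg1, Reg2 and Reg3d did not pass the test between the diets. In limma over all genes, the differences were 1.84 (SE 0.73), 1.41 (SE 0.78) and 0.53 (SE 0.28), with adjusted p of 0.30, 0.45 and 0.44. All control values of Reg2 and Reg3d, and all Reg3d values under inulin but that of mouse 3, lay under the array quartile used above for Reg3a, so their differences carry the same limit. Without inulin mouse 3 they were 1.14, 0.61 and 0.24, with adjusted p of 0.21, 0.32 and 0.22. Leaving out that mouse thus reduced each difference by more than 1.5 times. Reg4, a family member of deep crypt secretory cells encoded on chromosome 3, had a mean of 11.47 ± 0.34 (SD) over the 5 control mice and of 10.60 ± 0.55 over the 6 inulin mice, 4 of which were below every control. Its difference of -0.86 (SE 0.24) did not pass (limma adjusted p 0.17), but it passed with the replicate number as a block (limma adjusted p 0.020), a fit in which inulin mouse 6, with no control of its number, does not count. Without that mouse and with no block, the adjusted p was 0.10.

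Pancreatic acinar markers were highest in the same mouse as Reg1, Reg2, Reg3d and Reg3a, and their part in the differences of any Reg gene was not tested. Of 16 measured markers, 13 had a higher mean under inulin, 15 were highest in inulin mouse 3, and 0 passed the test. Of all genes, 9.39% were highest among inulin mice in mouse 3 and above every control there. Clps and Cela1, the markers with the highest values, differed by -0.69 and -0.15. The summed level of the markers ran from 11.13 to 11.73 in control and from 10.21 to 14.27 in inulin mice on the log2 scale. The mean of the markers was 9.39, 7.16, 6.55, 5.52, 5.49 and 5.04 in inulin mice 3, 5, 4, 1, 6 and 2. Reg2 had the same order of mice (8.90, 5.13, 4.12, 4.06, 3.80 and 3.41). Reg1 had it too (9.44, 6.40, 5.72, 5.01, 4.46 and 4.56), except that inulin mice 6 and 2 changed places. Reg3d and Reg3a shared only its highest mouse and parts of the rest. Inulin mouse 3 was next to lowest among inulin mice for Reg3g and the fourth of 6 for Reg3b. Control mouse 3, with the highest pancreatic mean of the controls (6.41), had the highest Reg1 of the controls and the lowest Reg3a, Reg3b and Reg3d of all mice.

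**Figure D3:**
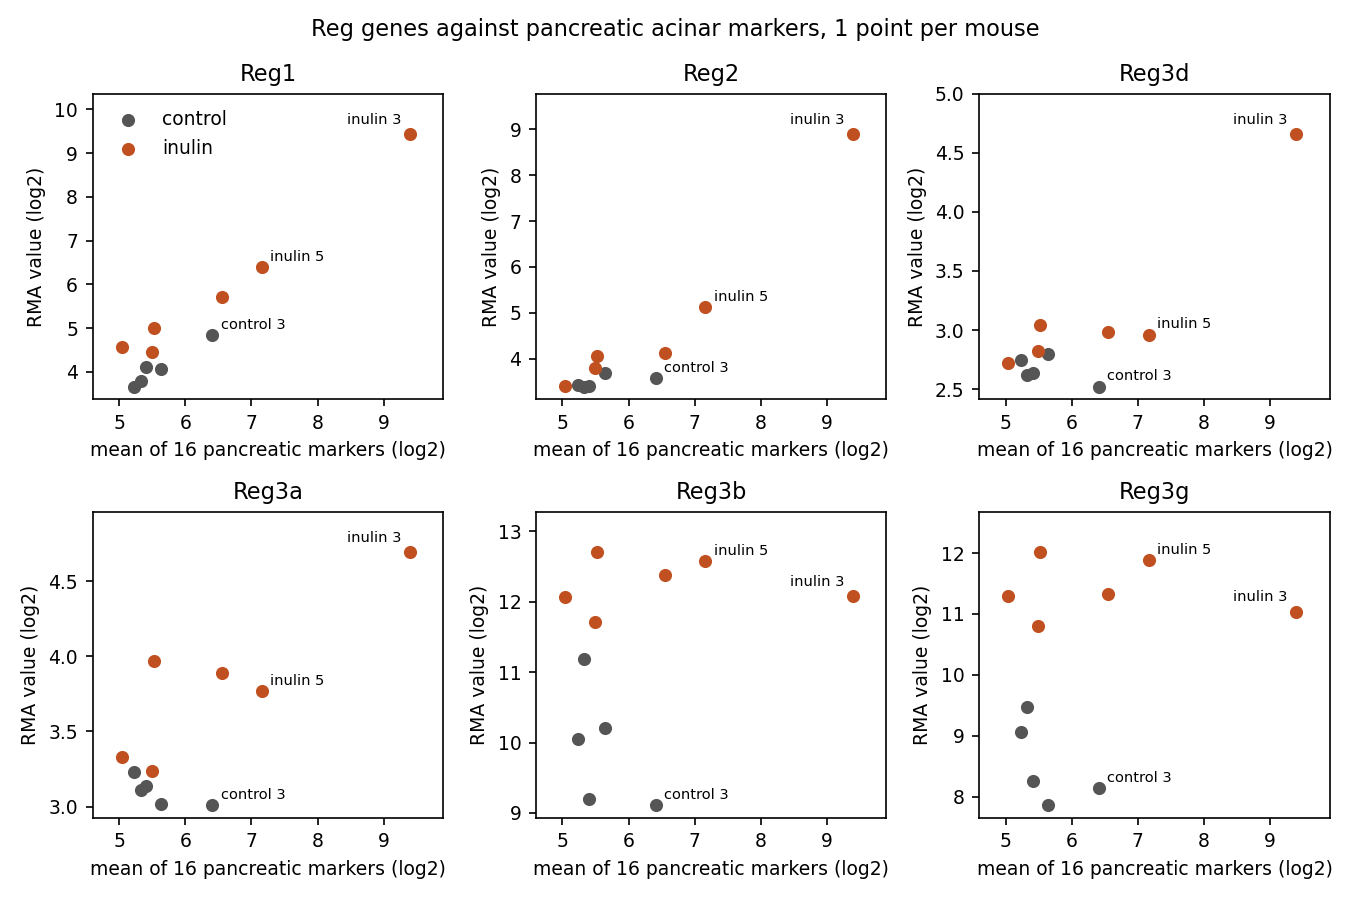
Log2 array values of 6 Reg genes (y axes, a scale of its own for each gene) against the mean of 16 pancreatic acinar markers (x axes, log2), 1 point per mouse. Inulin mouse 3, at 9.39 on the x axis, is the highest mouse for Reg1, Reg2, Reg3d and Reg3a, but not for Reg3b or Reg3g.

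The small intestine is known to make more REG3 lectin than the colon, so its markers and those of Paneth cells were set beside the members. Small intestinal enterocyte markers, led by Fabp2 (difference 0.45, limma adjusted p 0.11) and Mgam (0.06), had a median difference of 0.06. Of 17 measured, 12 were higher and 0 passed, and their summed level ran from 12.90 to 13.09 in control and from 13.03 to 13.34 in inulin mice. Of 4 measured Paneth cell markers, 3 were lower under inulin and 1 of them, the lectin Itln1, fell. The list was led by the lysozyme gene Lyz1 (-0.31) and Itln1, and its summed level ran from 7.57 to 8.42 and from 6.81 to 9.13. The part of either cell type in the lectin values was not tested.

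Genes of the pathways that are known to act on the lectins were described next. Lists of 114 genes were examined, 102 of them measured, covering the family, cytokines and their receptors, JAK-STAT3 signalling, bacterial sensing, genes known to respond to interleukin-22, and other secreted antibacterial proteins. In the limma fit over all genes, 1 of the 102 rose and 1 fell (1.96%). Of all 18820 genes, 17 passed (0.0903%), 0.0531% higher and 0.0372% lower under inulin. The lists were drawn up with earlier results of these arrays known, so this share carries no weight. At an unadjusted p under 0.05, 9 were higher and 11 lower (19.6%), against 13.5% of all genes (6.34% higher and 7.19% lower). The mean was higher under inulin for 62 of the 102, and for 51.4% of all genes. The median difference of the 102 was 0.04, and that of all genes 0.0039.

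Interleukin-22 itself had no probe set with a symbol of its own. Among 14 measured genes of the cytokine list, which holds the decoy receptor of interleukin-22 as well as ligands, 0 passed, and the differences ran from -0.27 to 0.05. The smallest p belonged to Lif (-0.17), Il11 (-0.14) and Il18 (-0.27), a cytokine made by the epithelium. Il17a, the interleukin that acts beside interleukin-22, was at 3.63 ± 0.17 (SD, n = 5) and 3.56 ± 0.11 (SD, n = 6), under the array quartile named above. Of the 14, 7 had such a mean, and a change in them would be hard to see. The decoy receptor Il22ra2 differed by -0.12 (SE 0.25).

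Of 13 measured cytokine receptors, 0 passed. The interleukin-22 receptor genes Il22ra1 and Il10rb were well detected and differed by -0.04 (SE 0.086) and 0.08 (SE 0.059), and Il6st, the shared gp130 receptor chain, by 0.01 (SE 0.080). Lifr had the largest difference at -0.39 (SE 0.11, limma adjusted p 0.17), followed in p by Il18r1 (0.20) and Il17rc (0.15). Il17rc, a chain of the interleukin-17 receptor, was higher in every inulin mouse than in every control mouse, but only by 0.01.

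JAK-STAT3 signalling genes had 0 of 13 past the threshold. Stat3, the transcription factor through which interleukin-22 acts, was at 9.53 ± 0.12 (SD, n = 5) and 9.58 ± 0.10 (SD, n = 6). Socs3, its feedback inhibitor and a common readout of STAT3 activity, was at 5.78 ± 0.21 and 5.90 ± 0.26, with control and inulin mice overlapping. Cish, another feedback inhibitor, differed by -0.25 (SE 0.074, limma adjusted p 0.18), Pim1 by 0.12 and Cebpb by 0.08.

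Bacterial sensing genes had 0 of 18 past the threshold, and 13 of them were higher. Myd88, the adaptor of most Toll-like receptors, was at 9.06 ± 0.09 (SD, n = 5) and 9.12 ± 0.12 (SD, n = 6). Ly96, the partner of TLR4 in binding endotoxin, differed by 0.33 (SE 0.096, limma adjusted p 0.17) and was above every control in 5 of 6 inulin mice. Its co-receptor Cd14 differed by -0.27 and the peptidoglycan sensor Nod1 by -0.25. Extl3, a glycosyltransferase reported to act as a receptor for REG proteins, differed by 0.07 (SE 0.069, limma adjusted p 0.71).

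Among 19 measured genes known to respond to interleukin-22, 0 passed, 10 were higher and 9 lower. At an unadjusted p under 0.05, 6 of the 19 were higher and 2 lower, beside the shares of all genes given above. The 6 were Lrg1, Nos2 and Fut2, and Lcn2 (0.25), Duox2 (0.45) and Duoxa2 (0.51), and the 2 were Muc1 (-0.71) and Saa2 (-0.24). Lrg1, a secreted glycoprotein, had the smallest adjusted p of the 19. It was at 4.20 to 4.79 in control and 5.04 to 5.88 in inulin mice without overlap, a difference of 0.90 (SE 0.16) with a limma adjusted p of 0.057. Inulin mice 1 and 5, the highest for Reg3g, were also the highest for Lrg1 (5.88 and 5.77), and inulin mouse 6 was the lowest (5.04). Its limma adjusted p ran from 0.010 with the replicate block to 0.17 without control mouse 3.

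Nos2, the inducible nitric oxide synthase, was at 5.90 ± 0.56 (SD, n = 5) and 6.89 ± 0.44 (SD, n = 6), without overlap, a difference of 0.99 (SE 0.26, limma adjusted p 0.15). Fut2, which fucosylates surface glycans of the epithelium, differed by 0.31 (SE 0.081, limma adjusted p 0.14). Macrophage markers, led by C1qb and Cd68, were highest in inulin mouse 5 (mean 5.77 against 4.68 to 4.99 in the other mice), the mouse with the highest Nos2 (7.79). Of 10 measured macrophage markers 10 were higher and 0 passed, and their summed level ran from 8.15 to 8.48 in control and from 8.14 to 9.45 in inulin mice. Their part in Nos2 was not tested.

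The 2 genes past the threshold belonged to the 20 measured antibacterial proteins beside the lectins. Lpo, a secreted peroxidase, rose from 8.04 ± 0.24 (SD, n = 5) to 8.92 ± 0.29 (SD, n = 6), by 0.88 (SE 0.14) or 1.84-fold (limma adjusted p 0.043), and was above every control in 6 of 6 inulin mice. Itln1, an intestinal lectin of another fold that binds bacterial sugars, fell by 2.21 (SE 0.34), with means of 6.47 ± 0.21 and 4.26 ± 0.88 (limma adjusted p 0.032). It was below every control in 6 of 6 inulin mice, as were 1.16% of all genes, though inulin mouse 5 was at 5.98 where the rest were at 3.63 to 4.31. As the mean of its probe sets the Itln1 difference was -1.37. Itln1 did not pass without any single one of the 5 control mice or of inulin mice 1 to 4 (adjusted p 0.052 to 0.11). Without inulin mouse 5, which stood out by its Itln1 value, the difference was -2.55 (limma adjusted p 4.4e-06). With a robust variance prior the limma adjusted p of Itln1 was 0.062. Lpo did not pass without control mouse 1, 2, 3 or 5 or inulin mouse 1, 2, 3 or 4 (adjusted p 0.052 to 0.14).

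**Figure D4:**
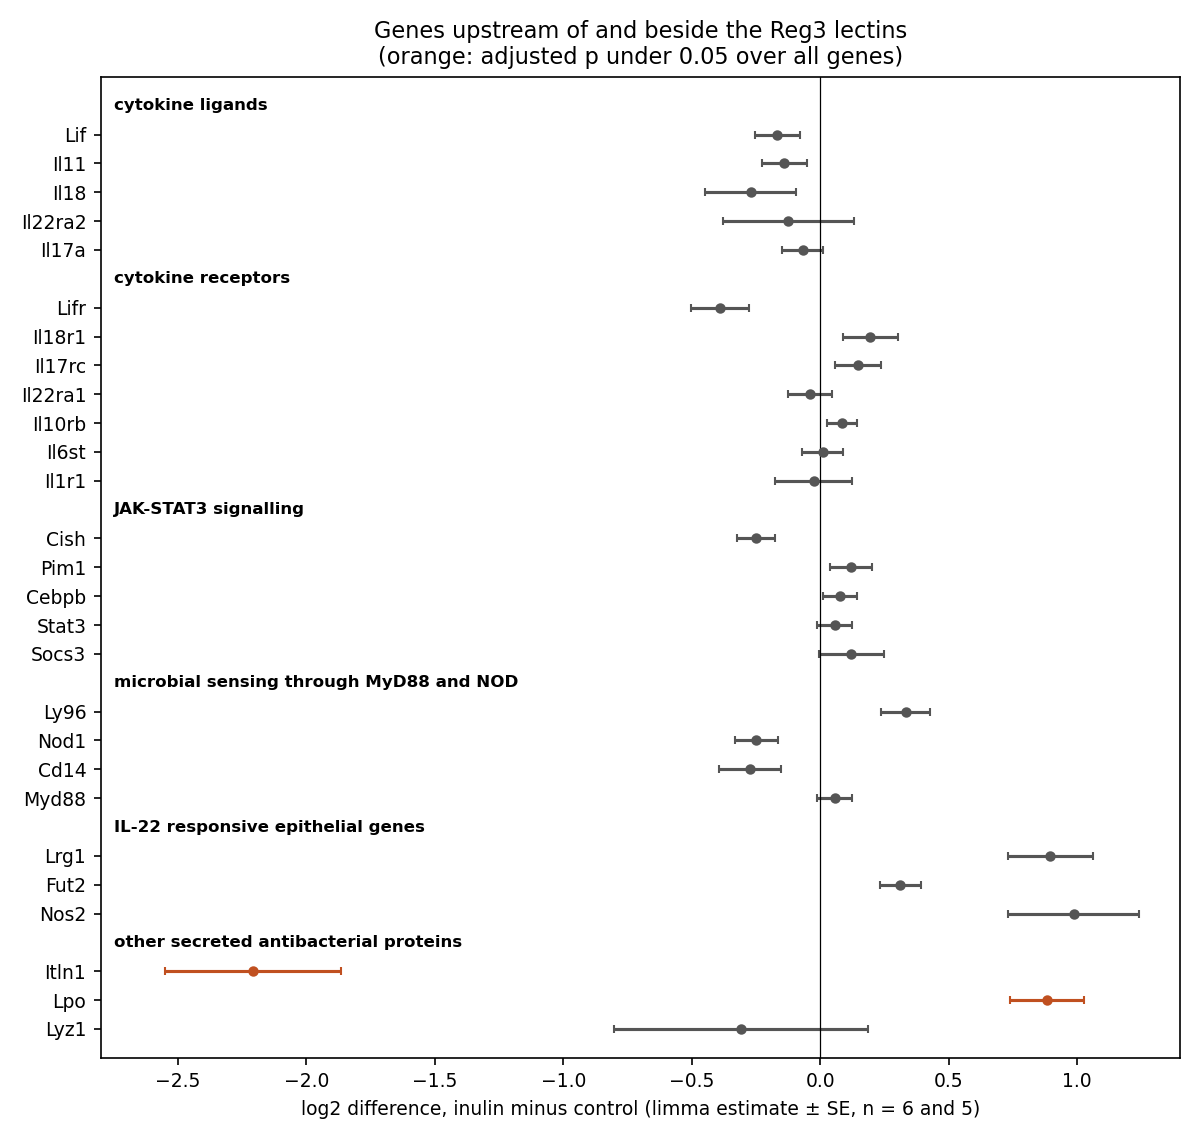
Log2 difference between inulin and control (x axis, limma estimate ± SE, 6 and 5 mice) for genes named from the lists of cytokines, receptors, signalling and antibacterial proteins, and for Il1r1 and Lyz1, which lead cell type lists. Only Itln1 (-2.21) and Lpo (0.88), in orange, have an adjusted p under 0.05, and most genes upstream of the lectins lie within 0.4 of 0.

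Markers of cells that supply interleukin-22, and of neutrophils, had near equal means in the diets. Of 9 measured markers of ILC3 and T helper 17 cells, led by Ahr and Il1r1, 3 were higher, 0 passed, and the mean ran from 4.94 to 5.13 in control and from 4.90 to 5.15 in inulin mice. Neutrophil markers, led by Elane and Mpo, lay near the lower quartile of the arrays (means of 3.68 to 3.84 in control and 3.71 to 3.84 in inulin mice). Goblet cell markers, led by Muc2 and Clca1, had a median difference of 0.02, and colonocyte markers, led by Car1 and Ceacam1, of 0.07.

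Several other lists leaned one way. Deep crypt secretory cell markers, led by Agr2 and Cd24a, were lower in 8 of 8, with a median difference of -0.54. Tuft cell markers, led by Dclk1 and Sh2d6, were lower in 9 of 9 (median -0.36), and of these 17 genes only the tuft cell gene Gnat3 passed. Enteroendocrine markers, led by Chga and Chgb, had a median difference of -0.01, and 1 of 10, Cck, rose. Adipocyte markers, led by Pck1 and Cidec, were higher in 11 of 11 (median 1.32), with 0 past the threshold. Hox genes of the distal colon, led by Hoxb13 and Hoxa13, were lower in 6 of 6 (median -0.65), also with 0 past it. The Hox differences ran from -1.50 (Hoxd10, limma adjusted p 0.055) to -0.12 (Hoxd9). The part of these cell types, or of the stretch of colon scraped, in the lectin values was not tested.

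Genes that followed the lectins from mouse to mouse within a diet were sought among 9159 genes with a mean at or above the median of all genes, after predicted genes, clone-named genes, small RNA genes and the members were left out. Likeness was the mean of Pearson's r with Reg3g and with Reg3b over the 11 mice, with each value taken as its deviation from the diet mean. The most alike was B4galt3, a galactosyltransferase of the Golgi, at a mean r of 0.89. Dnajc3, a co-chaperone of the endoplasmic reticulum, followed at 0.83. Tjap1, a tight junction-associated protein, and Sptssb, a subunit of serine palmitoyltransferase, were both at 0.81. Ifnar1, a chain of the type I interferon receptor, was at 0.80, and Unc93b1, which carries nucleic acid-sensing Toll-like receptors to endosomes, at 0.78. Within the 6 inulin mice alone, r of these genes ran from 0.61 (Tjap1 with Reg3b) to 0.98 (B4galt3 with Reg3b). With no gene left out by name, Reg3b itself came 52nd of 9409 genes by its r with Reg3g alone, and Reg3g came 25th by its r with Reg3b.

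The amounts behind these correlations were small except for Sptssb. B4galt3 ran from 8.22 to 8.51 in control and from 8.09 to 8.25 in inulin mice, and its diet difference was -0.13, whereas Sptssb differed by 0.59 (SE 0.18, limma adjusted p 0.20) and was above every control in 4 of 6 inulin mice. The most opposite were Ldlrad3 (mean r -0.80), Porcn, an acyltransferase for Wnt proteins (-0.80), and Car2, a carbonic anhydrase (-0.79). Porcn was lower in every inulin mouse than in every control mouse, with a difference of -0.35 (SE 0.073, limma adjusted p 0.073). With 11 mice and 9159 genes such values are a description, and control mouse 4, high for both lectins, was the highest control for all 6 genes most alike and the lowest for the 3 most opposite.

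**Figure D5:**
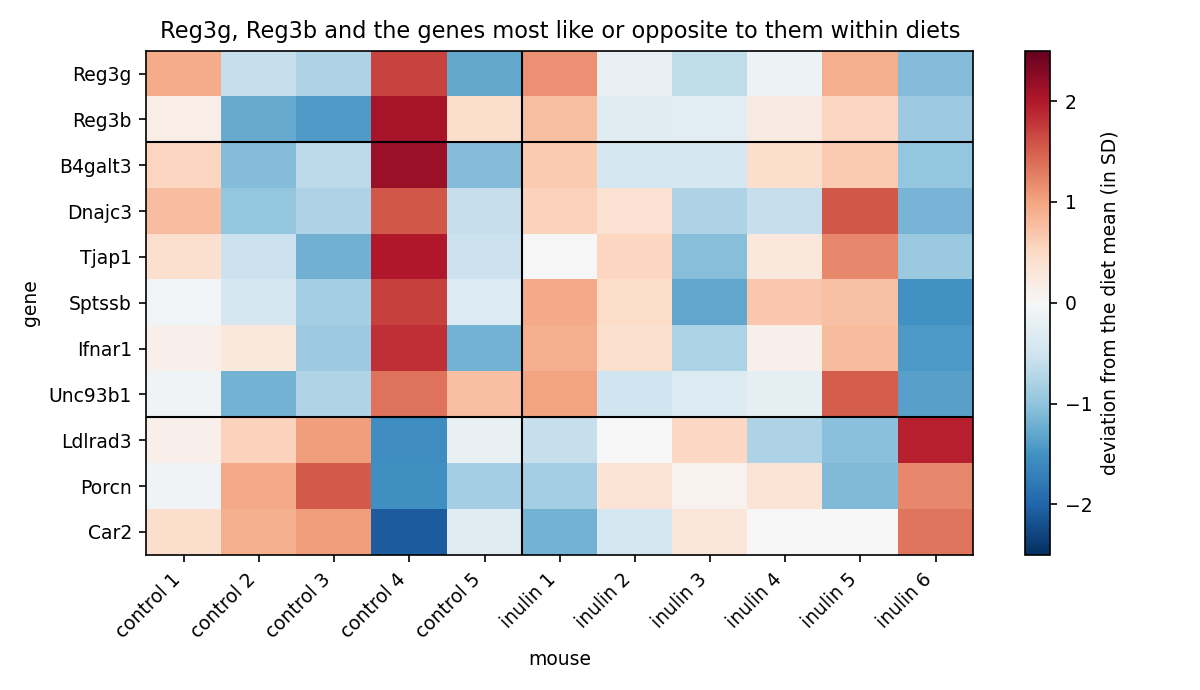
Deviation of each mouse from its diet mean, in SD of the gene (colour scale), for Reg3g and Reg3b (top), the 6 genes most like them (middle) and the 3 most opposite (bottom), with the diets separated by a vertical line. Control mouse 4 stands out in most genes. Inulin mice 1 and 5 are high and inulin mouse 6 is low for both lectins and for most of the 6 genes most alike. Tjap1 lies near its diet mean in inulin mouse 1.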

How the data were processed

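RNA from colon scrapings of 11 mice was measured on arrays. The authors deposited log2 values, and RMA is the tool that the submitters' processing notes name. It corrects background, makes the arrays' distributions alike and summarises probes, so a shift shared by most genes is removed. For its version and the build, the sources used here give nothing. Of 35556 probe sets, 21218 had 1 gene symbol. The 1386 genes with several kept the 1 that was brightest on average.

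Groups and replicate numbers came from the sample titles. The test was limma (3.58.1, R 4.3.3; lmFit and eBayes, inulin minus control, no covariate). P-values had Benjamini-Hochberg adjustment over all 18820 genes, 0.05 was the threshold, and the steps were tested on simulated data. Standard errors are limma's. Correlations used exact permutations (720) or 100000 resamples. Promoters were aligned with Biopython 1.88 (match 1, mismatch -1, gap opening -3, extension -0.5).

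Members and lists were chosen with earlier results of these data known. Named genes are the members, their family, Extl3, genes past the threshold or the 3 smallest p of each list, 8 genes of the interleukin-22 and MyD88 pathways, the 2 leading markers of each cell type and the 9 genes by likeness. Gnat3, Cck, Lcn2, Duox2, Duoxa2, Muc1, Saa2, Hoxd10 and Hoxd9 were named after their values were seen. Alternatives were other scalings, the mean of probe sets, other variance priors, a filter, a threshold of 0.1, the replicate number as a block and leaving out mice. The main fit did not treat the replicate numbers as pairs. Correlations of same-numbered deviations ran from -0.104 to 0.221. They were not compared with those of differently numbered mice, so they cannot decide whether mice of a number belong together. No depth applies to arrays, and their number limits the precision.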

Additional observations from a re-analysis of the deposited data

Results flagged for a closer look

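An array was examined for standing apart by its gap to the next array, divided by the range of its group. It was flagged when this ratio exceeded Dixon's 95% critical value (0.710 for 5 arrays, 0.625 for 6). Of 138 groups (the named genes in each diet), 15 (10.9%) had such an array, where chance gives about 1 in 20. Reg3g, Reg3b and Reg3a had none in either diet.

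Inulin mouse 3 stood apart in Reg2 (8.90, next 5.13) and Reg3d (4.66, next 3.04). Inulin mouse 4 was high in Extl3 (8.39, next 8.12).

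Inulin mouse 5 stood apart in 10 groups. It was highest in the immune and signalling genes Il17rc (10.30), Nos2 (7.79), Il22ra1 (10.86), Il22ra2 (5.23), Stat3 (9.77) and C1qb (7.47), and in the secretory genes Itln1 (5.98), Lyz1 (8.85) and Clca1 (13.07). It was lowest in Il1r1 (6.42). Among controls, mouse 5 was high in Il18 (8.87) and mouse 4 in C1qb (6.21).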

How the results depend on the processing

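The differences of Reg3g, Reg3b and Reg3a kept their direction and stayed within 1 SD of the reported value under the scalings, the mean of probe sets, the replicate block and without inulin mice 3, 4 and 5, though the choice of members largely fixes the direction. Leaving out each mouse gave 2.65 to 3.06 for Reg3g, 2.09 to 2.61 for Reg3b and 0.54 to 0.83 for Reg3a. With the replicate number as a block they were 2.95, 2.41 and 0.83, the same as without inulin mouse 6, which has no control of its number and drops out of that fit. The correlation of Reg3b with Reg3g within inulin mice ran from 0.92 to 0.98 leaving out each mouse, that of Reg3a with Reg3g from -0.32 to 0.79 and that of Reg3a with Reg3b from -0.11 to 0.93.

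Of all genes, 17 passed. The count was 62 with centred arrays (44 higher, 18 lower), 95 with the replicate block (50 without inulin mouse 6 and no block), 33 without inulin mice 3, 4 and 5, 42 with an intensity trend, 52 with the filter, 130 at 0.1, and 7 to 98 leaving out each mouse. Of the 102 pathway genes, 2 passed, against 6 with the replicate block (3 without inulin mouse 6 and no block), 1 without inulin mice 3, 4 and 5, 1 with a robust prior, and 0 to 5 leaving out each mouse. The cause of these shifts was not tested.

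Of 1245 values for 66 other named genes under the alternatives, 28 changed sign, all in genes that did not pass. Leaving out each mouse gave -0.04 to 0.05 for Il6st, -0.38 to 0.01 for Cela1, -0.01 to 0.03 for Muc2, -0.11 to 0.06 for Chga, -0.10 to 0.06 for Chgb, -0.00 to 0.10 for Mpo, -0.08 to 0.10 for Il1r1 and -0.09 to 0.10 for Cd68. Without inulin mice 3, 4 and 5 the values were -0.05 for Il6st, -0.01 for Muc2, -0.00 for Ahr, 0.06 for Il1r1 and -0.06 for Cd68. Centring gave 0.02 for Chga, 0.01 for Chgb and 0.00 for Il1r1, quantile normalisation 0.02 for Il1r1, and the replicate block 0.06 for Chga and 0.03 for Chgb.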
